A study of Mus musculus with 32 samples.

Results

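The messenger RNA levels of 10 genes of the bone morphogenetic protein (BMP) pathway were followed in mouse embryonic stem cells taken out of the media that hold them in naive pluripotency. The genes are Id1, Id2, Id3, Id4, Bmp4, Bmpr1a, Smad1, Smad5, Smad6 and Msx1. They were taken by name from 31053 genes in the count files, and all 10 were found. The cells were of the E14 line, an established line, grown on gelatin in the serum-free medium N2B27 with 2i or 2iL added. The 2i addition is 3 uM CHIR99021, which blocks GSK3, with 1 uM PD0325901, which blocks MEK. The 2iL addition is the same pair with the cytokine LIF. Plated cells were moved to plain N2B27 and collected 12, 24, 36, 48, 60, 72 and 84 h later in the 2i course, and 24, 36, 48, 60, 72, 84 and 96 h later in the 2iL course. Cells still in 2i or 2iL are the 0 h groups. All groups thus share the line and the basal medium. There were 16 groups of 2 libraries each, and 31 of the 32 libraries were used. Each library is given by its replicate number, as library 1 or library 2 of its group.

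BMP ligands such as Bmp4 bind pairs of type I and type II receptors, and the receptors phosphorylate Smad1 and Smad5, which enter the nucleus with Smad4 and turn on target genes. The Id genes are among the best known of these targets. Id proteins have a helix-loop-helix domain but no DNA-binding region, so they hold E proteins such as Tcf3, Tcf4 and Tcf12 in pairs that cannot bind DNA, and in embryonic stem cells kept with LIF and BMP they are known to restrain neural differentiation. Smad6 and Smad7 are inhibitory SMADs that feed back on the pathway.

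The 31 libraries held 1122648 to 3438514 counts (median 1980949), and the floor used for a count of 0, 3 counts, corresponded to 0.872 to 2.67 counts per 1000000 (CPM). The library left out, library 2 of 2iL 36 h, held 7298 counts, so 2iL 36 h rests on 1 library. Summed over 10 pluripotency genes the level was 2335 and 2242 CPM at 0 h in 2i and 2337 and 2518 CPM at 0 h in 2iL, with Pou5f1, Sox2 and Nanog detected in all 31 libraries. In 4 libraries (library 1 of 2iL 48 h, library 2 of 2iL 84 h, library 1 of 2iL 96 h and library 2 of 2i 12 h, known from earlier results of these data) 44 of 8254 genes were at least 2-fold lower than in the partner library in all 4 pairs, and 0 genes were at least 2-fold higher. Id3 is 1 of these 44, and no other of the 10 genes is. The share of counts taken by the 10 most abundant genes was higher in the library that stands apart than in its partner in each pair, at 25.3% against 19.6% for 2iL 48 h, 27.5% against 22% for 2iL 84 h, 27.4% against 24.0% for 2iL 96 h and 43.5% against 35.5% for 2i 12 h. Its part in the results was not tested, and values that rest on these libraries are given with and without them.

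All 10 genes passed the filter on low counts, which asked for 1 library over its minimum because 2iL 36 h has 1 library. Bmp4 and Smad6 were over 5 CPM in 2 of 31 libraries each and Msx1 in 8, so these 3 genes rest on few counts. For Bmp4 these were library 1 of 2i 12 h (6.18 CPM) and library 1 of 2iL 24 h (11.6 CPM). For Smad6 they were library 2 of 2i 72 h (5.95 CPM) and library 1 of 2i 84 h (5.05 CPM). Both genes thus passed the filter only through groups where they were high. Bmpr1a, Smad1 and Smad5 were over 5 CPM in all 31, Id2 and Id3 in 27, Id1 in 24 and Id4 in 17.

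RefSeq promoter windows of 300 bases, around the start of transcription on GRCm38.p6, were matched by symbol for 9 of the 10 genes, all but Id1. There were 11 windows in all, 3 of them for Smad5. A pair of short SMAD-binding motifs known from other genes was searched in them, the GC-rich element GGCGCC, bound by BMP-activated SMADs, and the palindromic element GTCTAGAC. Both read the same on either strand, and they do not overlap. GGCGCC occurred in 5 of these 11 windows, those of Id2, Id4 and Bmpr1a and 2 of Smad5, against 3898 of 32851 windows of all genes (11.9%). The 2 matching windows of Smad5 overlap and hold the same site, so by gene the match was 4 of 9, while the share of all is by window. GTCTAGAC occurred in 1 of the 11, that of Smad6, against 70 of 32851 windows (0.213%). The windows of the 2 Id genes that moved farthest in opposite directions, and that of the feedback gene Smad6, are shown 5′ to 3′ with the match in capitals. A match describes the letters and not binding, and the direction of change differed between Id2 and Id4, whose windows both hold GGCGCC.
Id2 (chr12:25096043-25096342, minus strand): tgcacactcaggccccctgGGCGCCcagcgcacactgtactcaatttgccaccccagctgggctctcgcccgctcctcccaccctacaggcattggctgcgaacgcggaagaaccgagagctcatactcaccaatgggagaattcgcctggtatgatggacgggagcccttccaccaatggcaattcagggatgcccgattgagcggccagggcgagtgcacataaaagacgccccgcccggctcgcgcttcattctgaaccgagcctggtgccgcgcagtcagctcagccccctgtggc
Id4 (chr13:48260866-48261165, plus strand): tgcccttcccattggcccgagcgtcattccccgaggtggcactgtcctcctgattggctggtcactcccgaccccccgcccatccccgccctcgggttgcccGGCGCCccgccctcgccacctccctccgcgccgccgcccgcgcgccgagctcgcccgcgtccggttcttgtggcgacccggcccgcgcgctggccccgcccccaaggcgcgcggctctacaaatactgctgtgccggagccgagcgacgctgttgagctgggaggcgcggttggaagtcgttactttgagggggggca
Smad6 (chr9:64022010-64022309, minus strand): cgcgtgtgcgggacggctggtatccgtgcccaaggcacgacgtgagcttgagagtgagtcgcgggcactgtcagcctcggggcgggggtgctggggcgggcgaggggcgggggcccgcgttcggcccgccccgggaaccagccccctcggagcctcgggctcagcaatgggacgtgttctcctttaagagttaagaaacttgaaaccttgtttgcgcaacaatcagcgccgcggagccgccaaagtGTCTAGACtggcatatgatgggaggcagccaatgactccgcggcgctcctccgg

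Before withdrawal, 2 of the 10 genes differed between 2i and 2iL, against 1004 of all 12556 tested genes, or 8% (edgeR's quasi-likelihood test, Benjamini-Hochberg adjusted p under 0.05 over all tested genes). Both were higher in 2i, as were 3.75% of all tested genes, and the median log2 difference of the 10 was 0.07, against 0.01 for all tested genes. Id3 (ENSMUSG00000007872, mm10 chr4:136143497-136145755, plus strand) had 24.2 and 13.7 CPM in 2i and 3.33 and 0.886 CPM in 2iL. The groups did not overlap, and the 2iL libraries held 10 counts of Id3 in all. The log2 fold change was 3.14 ± 0.82 (SE, adjusted p = 0.011). It was 2.49 without library 2 of 2iL 0 h (adjusted p = 0.17) and 2.64 without library 1 of 2i 0 h (adjusted p = 0.18), and neither passed. It was 4.35 without library 1 of 2iL 0 h, and was 3.13 without the 4 libraries that stand apart, none of which is a 0 h library.

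Smad1 (ENSMUSG00000031681, mm10 chr8:79338395-79399518, minus strand), a receptor-activated SMAD, had 27.8 and 19.8 CPM in 2i and 11.2 and 11.5 CPM in 2iL, again without overlap. Its log2 fold change was 1.08 ± 0.30 (adjusted p = 0.022). The call was lost under DESeq2 (adjusted p = 0.076) and without library 1 of 2i 0 h (0.34), library 1 of 2iL 0 h (0.16) or library 2 of 2iL 0 h (0.14). The other 8 genes did not pass the test, among them Id4 at 46.1 and 53.8 CPM in 2i and 72 and 63.8 CPM in 2iL.

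After withdrawal more of the 10 genes had changed against 0 h at the last time than at the first, and likewise more of all genes. In the 2iL course the number was 3 at 24 h (11.6% of all tested genes), 4 at 48 h (29.1%), 4 at 72 h (28.8%) and 6 at 96 h (39.5%). In the 2i course it was 2 at 12 h (10.8%), 2 at 24 h (17.3%), 3 at 48 h (20.2%), 4 at 72 h (28.2%) and 5 at 84 h (33.2%). Over all 7 times jointly, 8 of 10 changed in the 2iL course (56.5% of all tested genes) and 5 of 10 in the 2i course (52.3%). The count for the 2i course was 8 without the 4 libraries that stand apart, with Id3, Bmpr1a and Msx1 added. In that setting 7898 of 12400 tested genes were called, against 6563 of 12556 with them. The change in the 2iL course minus that in the 2i course passed for 5 of 10 genes over the 6 shared times jointly (22.5% of all tested genes), for 1 at 24 h (3.08%), 1 at 48 h (9.17%) and 3 at 72 h (9.8%). With 10 genes these shares are coarse. The median log2 fold change of the 10 was 0.24 at 72 h of the 2iL course (0.02 for all tested genes) and 0.84 at 72 h of the 2i course (-0.01 for all). RNA was measured in bulk, so fewer cells that express a gene and less RNA per cell cannot be told apart. How the replicates were made is not in the labels, and p-values cover only the spread between these libraries, which may be technical.

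**Figure D1:**
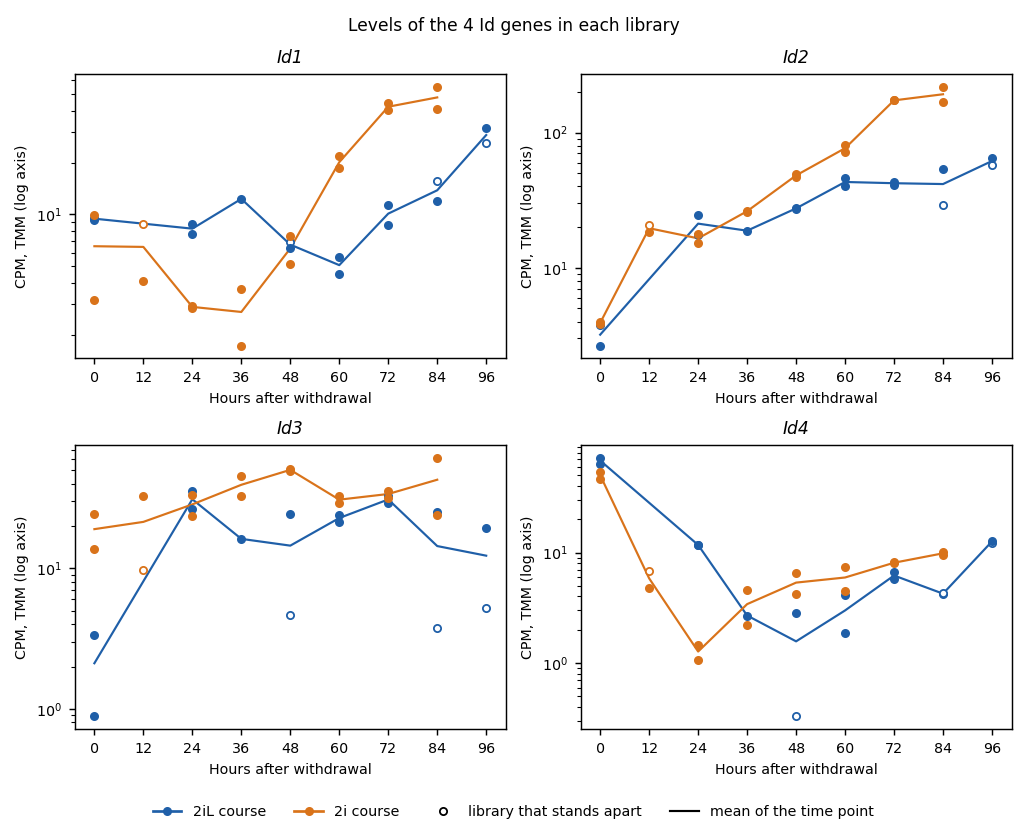
Level of Id1, Id2, Id3 and Id4 in CPM with TMM scaling (log axis) against hours after withdrawal, with a point for each library, the mean of each time as a line, the 2iL course in blue and the 2i course in orange. Id4 dropped within 24 h in both courses while Id2 climbed, Id1 was high in the last times only, and the open points, the 4 libraries that stand apart, are low for Id3.

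Id4 fell in both courses within the first sampled time, and part of its level was regained late. Id4 (ENSMUSG00000021379, mm10 chr13:48261228-48266026, plus strand) was at 72 and 63.8 CPM at 0 h of the 2iL course, 11.6 and 11.7 CPM at 24 h, 2.69 CPM in the single library of 36 h, 0.33 and 2.81 CPM at 48 h, 1.88 and 4.1 CPM at 60 h, 5.71 and 6.68 CPM at 72 h, 4.17 and 4.31 CPM at 84 h and 12.3 and 12.8 CPM at 96 h. The lower library of 48 h, replicate 1, is one of the 4 that stand apart and held 1 count. edgeR gave a log2 fold change of -2.54 ± 0.33 at 24 h (adjusted p = 1.5e-06), -5.48 ± 0.39 at 48 h (3.2e-12) and -2.42 ± 0.29 at 96 h (8.2e-08). Without that library it was -4.57 at 48 h, and without its partner -7.42.

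The low point of Id4 came earlier in the 2i course, where it was at 46.1 and 53.8 CPM at 0 h, 4.8 and 6.86 CPM at 12 h, 1.47 and 1.07 CPM at 24 h, 4.62 and 2.21 CPM at 36 h, 6.46 and 4.22 CPM at 48 h, 7.38 and 4.5 CPM at 60 h, 7.98 and 8.19 CPM at 72 h and 9.47 and 10.2 CPM at 84 h. The lowest libraries were those of 24 h, and no library after 0 h exceeded 10.2 CPM. Against 0 h the log2 fold change was -3.12 ± 0.38 at 12 h (adjusted p = 6.4e-07), -5.25 ± 0.42 at 24 h (6.9e-11) and -2.33 ± 0.32 at 84 h (8.7e-07).

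The difference in timing of Id4 between the courses passed the test. At 24 h the log2 fold change was -2.54 in the 2iL course and -5.25 in the 2i course, a difference of 2.72 ± 0.62 (adjusted p = 0.0086), which lost the threshold without library 2 of 2i 24 h (adjusted p = 0.12). At 48 h it ran the other way, -5.48 in the 2iL course and -3.24 in the 2i course, a difference of -2.24 ± 0.62 (adjusted p = 0.019). The 48 h difference was -1.33 without the 4 libraries that stand apart (adjusted p = 0.19), 0.23 was its adjusted p without library 1 of 2iL 48 h, 0.13 without library 1 of 2i 48 h, 0.053 without library 1 of 2iL 0 h, 0.059 without library 1 of 2i 0 h, and 0.054 when these 4 groups were fitted alone. Without library 2 of 2iL 48 h it was -4.17 (adjusted p = 0.0014). Over the 6 shared times jointly the courses differed for Id4 (adjusted p = 1.0e-04), and no alternative ended that call.

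Id2 rose in both courses and was above 0 h at all later times, while Id4 was below it. Id2 (ENSMUSG00000020644, mm10 chr12:25093799-25097140, minus strand) was at 3.75 and 2.66 CPM at 0 h of the 2iL course, 24.7 and 17.6 CPM at 24 h, 18.8 CPM at 36 h, 27.4 and 27.7 CPM at 48 h, 46.2 and 40 CPM at 60 h, 41.2 and 43.1 CPM at 72 h, 54.2 and 29.1 CPM at 84 h and 57.8 and 65.3 CPM at 96 h. The libraries from 60 h to 84 h overlapped, so no order between these times holds beyond their spread, and the lower one of 84 h stands apart. The log2 fold change was 2.71 ± 0.37 at 24 h (adjusted p = 4.0e-06), 3.69 ± 0.31 at 72 h (9.6e-11) and 4.24 ± 0.30 at 96 h (1.8e-12).

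Id2 stood at 3.97 and 3.85 CPM at 0 h of the 2i course, 18.5 and 20.6 CPM at 12 h, 15.2 and 17.9 CPM at 24 h, 26 and 26.5 CPM at 36 h, 47.2 and 49.3 CPM at 48 h, 81.1 and 72 CPM at 60 h, 174 and 173 CPM at 72 h and 168 and 217 CPM at 84 h. The 24 h libraries lay below those of 12 h, and from 24 h on each time lay above the one before without overlap up to 72 h, and the libraries of 72 h and 84 h overlapped. On the log2 scale the change was 2.29 ± 0.37 at 12 h (adjusted p = 6.0e-05), 5.44 ± 0.29 at 72 h (3.4e-15) and 5.60 ± 0.28 at 84 h (9.3e-16). At 72 h the 2iL change was smaller than the 2i change, by -1.76 ± 0.52 (adjusted p = 0.028), and over the shared times jointly the courses differed (4.6e-06). The 72 h difference lost the threshold without library 1 of 2iL 0 h (adjusted p = 0.26), library 1 of 2i 0 h (0.088), library 2 of 2i 0 h (0.065) or library 1 of 2i 72 h (0.052), and with no filter on low counts (0.061). The joint call held under every alternative run.

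Id1 changed late. Id1 (ENSMUSG00000042745, mm10 chr2:152736251-152737410, plus strand) was at 9.57 and 9.3 CPM at 0 h of the 2iL course, 7.73 and 8.79 CPM at 24 h, 12.3 CPM at 36 h, 6.92 and 6.41 CPM at 48 h, 4.51 and 5.64 CPM at 60 h, 11.4 and 8.73 CPM at 72 h, 12 and 15.6 CPM at 84 h and 26 and 31.9 CPM at 96 h. The single library of 36 h and both libraries of 84 h and 96 h were above 0 h. Its log2 fold change was 0.11 ± 0.36 at 72 h, which did not pass (adjusted p = 0.87), and 1.62 ± 0.32 at 96 h (1.6e-04).

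Id1 stood at 3.18 and 9.89 CPM at 0 h of the 2i course, 4.12 and 8.82 CPM at 12 h, 2.94 and 2.86 CPM at 24 h, 1.73 and 3.68 CPM at 36 h, 5.17 and 7.51 CPM at 48 h, 21.7 and 18.5 CPM at 60 h, 44.2 and 40.2 CPM at 72 h and 54.9 and 40.8 CPM at 84 h. Libraries up to 48 h overlapped with those of 0 h or lay below them, and those from 60 h on lay above every earlier one. Against 0 h the log2 fold change was 2.77 ± 0.35 at 72 h (adjusted p = 2.2e-07) and 2.94 ± 0.34 at 84 h (4.5e-08). The spread of the 0 h libraries sets its size, which at 72 h was 2.11 without library 1 of 2i 0 h and 3.71 without library 2 of 2i 0 h, and at 84 h 2.27 and 3.88. The 2iL change at 72 h was lower than the 2i change by -2.66 ± 0.51 (adjusted p = 5.5e-04), a value of -2.01 without library 1 of 2i 0 h and -3.60 without library 2 of 2i 0 h. Over the shared times jointly the courses differed (adjusted p = 8.1e-07), and neither call ended under any alternative run.

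Id3 rose in the 2iL course from a low 0 h level, and its libraries scattered more than those of the other Id genes. It was at 3.33 and 0.886 CPM at 0 h, 35.6 and 26.4 CPM at 24 h, 16.2 CPM at 36 h, 4.62 and 24.5 CPM at 48 h, 21.4 and 24.1 CPM at 60 h, 29 and 32.9 CPM at 72 h, 25 and 3.77 CPM at 84 h and 5.2 and 19.4 CPM at 96 h. All libraries after 0 h lay above both 0 h libraries, and the 3 values under 6 CPM belong to libraries that stand apart. The log2 fold change was 3.83 ± 0.81 at 24 h (adjusted p = 0.0016), 2.68 ± 0.84 at 48 h (0.016), 3.81 ± 0.77 at 72 h (2.5e-04) and 2.61 ± 0.86 at 96 h (0.017). Without the 4 libraries that stand apart it was 3.78, 3.48, 3.80 and 3.17 at these times.

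The calls of Id3 at 24 h and 72 h of the 2iL course held under each of 11 alternatives, with values of 3.16 and 3.17 without library 2 of 2iL 0 h. Those at 48 h and 96 h did not. At 48 h it was 1.10 without library 2 of 2iL 48 h (adjusted p = 0.43) and 2.07 without library 2 of 2iL 0 h (0.14). At 96 h it was 1.25 without library 2 of 2iL 96 h (adjusted p = 0.47) and 2.01 without library 2 of 2iL 0 h (0.13), and the joint test of the course (adjusted p = 0.0047) gave 0.063 without library 2 of 2iL 0 h. Without library 1 of 2iL 0 h, whose 8 counts are most of the baseline, the changes were 5.04 at 24 h, 3.89 at 48 h, 5.02 at 72 h and 3.82 at 96 h.

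In the 2i course Id3 was at 24.2 and 13.7 CPM at 0 h, 32.9 and 9.8 CPM at 12 h, 33.3 and 23.6 CPM at 24 h, 32.9 and 45.6 CPM at 36 h, 51.1 and 49.3 CPM at 48 h, 32.5 and 29 CPM at 60 h, 31.9 and 35.7 CPM at 72 h and 61.2 and 24.1 CPM at 84 h. The 12 h and 84 h libraries spread widest, and 9.8 CPM is the 12 h library that stands apart. No time passed (log2 fold change 0.80 ± 0.56 at 72 h, adjusted p = 0.32), nor did the joint test (adjusted p = 0.30). Without the 4 libraries that stand apart the joint test passed (0.0013), as did 48 h with a log2 fold change of 1.37 (6.8e-05), 72 h with 0.81 (0.028) and 84 h with 1.12 (0.0011). In the 2iL course Id3 was at 35.6 and 26.4 CPM at 24 h and 29 and 32.9 CPM at 72 h, overlapping with the 2i course at both times. A difference in change at these times thus lies in the 0 h levels, which in 2iL rest on 10 counts. From these baselines the 2iL change exceeded the 2i change by 3.29 ± 1.01 at 24 h (adjusted p = 0.074) and by 3.01 ± 1.00 at 72 h (0.052). These differences were 3.24 (6.2e-05) and 2.99 (6.7e-05) without the 4 libraries, and they also passed with no filter on low counts or with the groups fitted alone. The joint test of the difference gave an adjusted p of 0.081, and it passed without the 4 libraries. Id3 is low in these 4 libraries, so smaller p-values without them are no independent support for its changes.

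**Figure D2:**
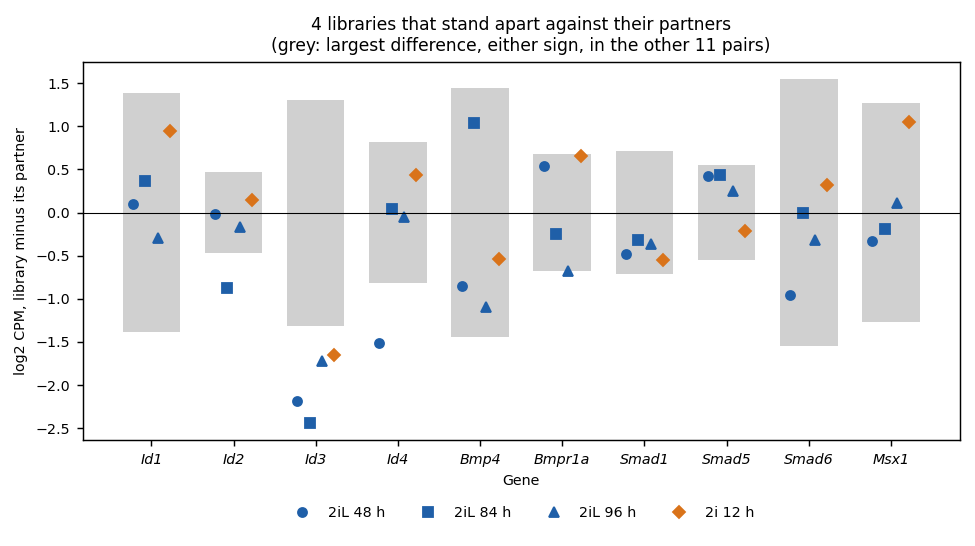
Difference in log2 CPM between each of the 4 libraries that stand apart and its partner of the same group, for the 10 genes, with the largest difference of either sign in the other 11 pairs as a grey band. Id3 lies below its band in all 4 pairs, at -2.18, -2.44, -1.72 and -1.65 against a largest difference of 1.31. Id3 is 1 of the 44 genes picked for being lower in all 4 of these pairs, so its low place follows from that choice. Id4 lies below its band in the 2iL 48 h pair and Id2 in the 2iL 84 h pair.

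Id3 and 43 other genes were picked for being lower in the 4 libraries than in their partners. The low Id3 and the low median of the others there thus follow from the choice. The median log2 deviation of the 43 was -1.54 to -1.38 in the 4 and -0.13 to 0.49 in the other 27 libraries. In both 0 h libraries of 2iL, where Id3 was low as well, that median was 0.49 and 0.25. Whether the low Id3 of these 0 h libraries and of the 4 has the same source was not tested. Of the other genes, Id4 was lower by 1.51 in the 2iL 48 h pair, beyond the largest difference of 0.82 in the other 11 pairs, and Id2 differed by -0.87 in the 2iL 84 h pair, beyond 0.47.

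Among ligand and receptor, Bmp4 was close to the floor and Bmpr1a was not. Bmp4 (ENSMUSG00000021835, mm10 chr14:46383520-46390669, minus strand), the ligand of the list, had 15 and 4 counts at 24 h of the 2iL course, against 6 and 5 counts at 0 h, a ratio of counts per TMM-scaled library total of 3.47 (exact 95% interval 1.57 to 8.08, for counting error only). From 72 h to 96 h it had 0 to 3 counts per library, and at 96 h the ratio to 0 h was 0.309 (0.0554 to 1.17). The joint test of the 2iL course passed (adjusted p = 0.028), and no single tested time did. It lost the threshold without library 1 of 2iL 24 h, the 15-count library (adjusted p = 0.39), and when the course was fitted alone (0.087). Bmp4 in the 2i course had 13 counts at 12 h, against 10 at 0 h, and 0 to 3 counts per library from 36 h on, and the joint test did not pass (adjusted p = 0.081).

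Bmpr1a (ENSMUSG00000021796, mm10 chr14:34410734-34503341, minus strand), a type I BMP receptor, lay between 14.6 and 41 CPM in all 31 libraries. Its joint edgeR test did not pass in the 2i course (adjusted p = 0.16) or the 2iL course (0.35). Both joint tests passed without the 4 libraries that stand apart. Bmpr1a rose at 84 h of the 2i course to 39.1 and 39.7 CPM, against 22.2 and 20.9 CPM at 0 h, without overlap. On the log2 scale the change was 0.87 ± 0.28 (adjusted p = 0.018), and leaving out any of these 4 libraries ended the call, with adjusted p-values of 0.058 without library 1 of 2i 84 h, 0.074 without library 2 of 2i 84 h, 0.082 without library 1 of 2i 0 h and 0.079 without library 2 of 2i 0 h. At 96 h of the 2iL course it had 21.4 and 35 CPM, against 14.6 and 23.9 CPM at 0 h, and did not pass (0.59 ± 0.29, adjusted p = 0.10). Without the 4 libraries that stand apart, 1 of which is the lower one of 96 h, that value was 0.90 (adjusted p = 0.0067).

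**Figure D3:**
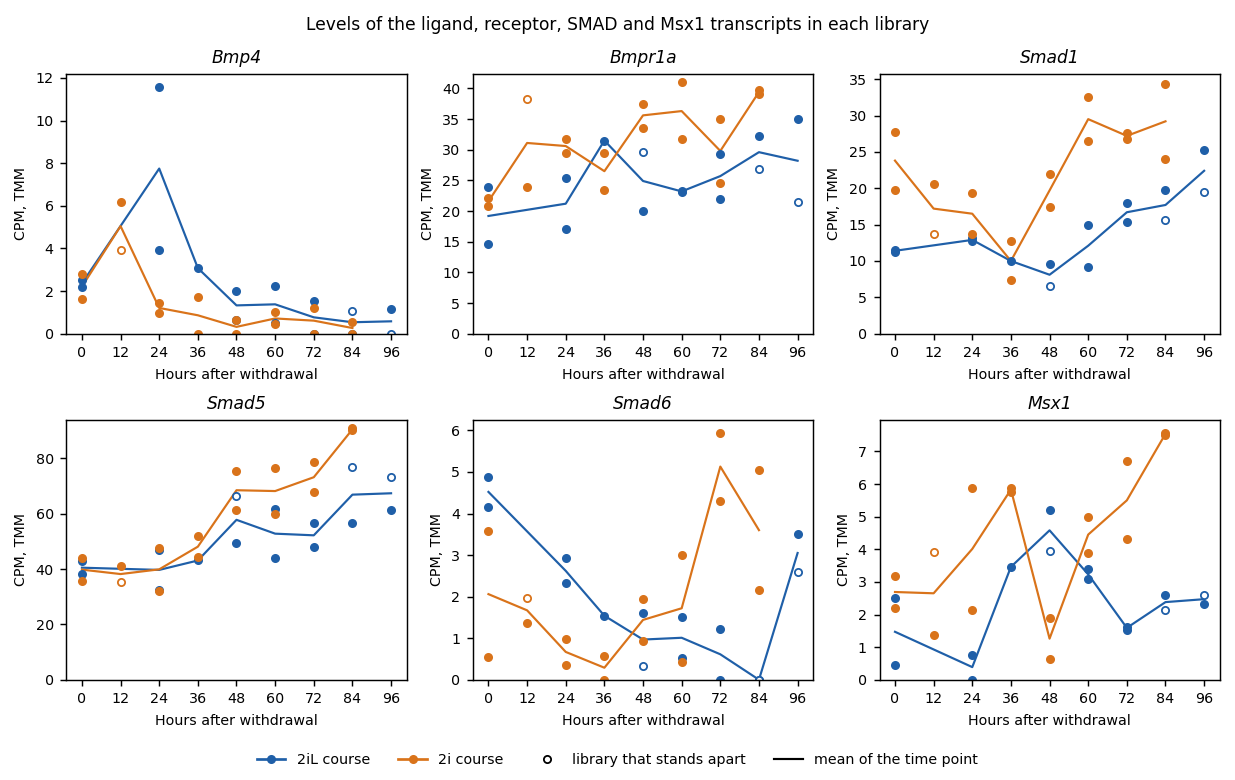
Level of Bmp4, Bmpr1a, Smad1, Smad5, Smad6 and Msx1 in CPM with TMM scaling (linear axis from 0) against hours after withdrawal, with a point for each library, the mean of each time as a line, the 2iL course in blue and the 2i course in orange. Smad5 climbed in both courses, Smad1 stood higher in the 2i course at 0 h, and Bmp4, Smad6 and Msx1 stayed under 12 CPM in every library.

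Of the receptor-activated SMADs, Smad5 rose late in both courses. Smad5 (ENSMUSG00000021540, mm10 chr13:56703010-56742377, plus strand) had 73.4 and 61.5 CPM at 96 h of the 2iL course, against 42.9 and 38.1 CPM at 0 h. At 84 h of the 2i course it had 90.9 and 90.1 CPM, against 35.7 and 44 CPM at 0 h. The groups did not overlap in either course, and all libraries up to 36 h in both courses lay at or below 52 CPM. At 96 h of the 2iL course the log2 fold change was 0.73 ± 0.23 (adjusted p = 0.013). In the 2i course it was 0.80 ± 0.23 at 48 h (adjusted p = 0.013), 0.89 ± 0.24 at 72 h (0.0047) and 1.19 ± 0.23 at 84 h (1.5e-04). The difference between courses did not pass at any time tested or jointly (adjusted p = 0.75), and at 72 h it was -0.52 ± 0.33.

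Of these Smad5 calls only that at 84 h of the 2i course held without every single library. The 48 h call ended without library 1 of 2i 0 h or library 2 of 2i 48 h (adjusted p = 0.18 for each), and the 72 h call without library 1 of 2i 0 h (0.087) or library 1 of 2i 72 h (0.066). The 96 h call ended without library 2 of 2iL 0 h (0.094) or library 1 of 2iL 96 h (0.079). Jointly the 2i course changed (5.7e-05) under every alternative. The joint 2iL call (0.028) ended without the 4 libraries that stand apart (0.063), with that course fitted alone (0.10), and without library 1 of 2iL 0 h (0.051), library 2 of 2iL 0 h (0.056), library 1 of 2iL 24 h (0.057), library 2 of 2iL 84 h (0.052) or library 1 of 2iL 96 h (0.058).

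Smad1 dipped and returned in the 2i course, where it was at 27.8 and 19.8 CPM at 0 h, 20.6 and 13.7 CPM at 12 h, 13.7 and 19.3 CPM at 24 h, 12.7 and 7.36 CPM at 36 h, 22 and 17.4 CPM at 48 h, 32.5 and 26.5 CPM at 60 h, 27.6 and 26.8 CPM at 72 h and 24 and 34.3 CPM at 84 h. The 36 h libraries were the lowest, and those from 60 h on overlapped with 0 h. The joint test of the course passed (adjusted p = 0.0025), and none of the 5 single times tested did. In the 2iL course Smad1 rose at 96 h to 19.5 and 25.3 CPM, against 11.2 and 11.5 CPM at 0 h (log2 fold change 0.99 ± 0.31, adjusted p = 0.011), a call that ended without library 1 of 2iL 0 h (0.063) or library 2 of 2iL 96 h (0.13). The joint test passed there as well (0.0049), and the difference between courses did not (0.33).

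Smad6 (ENSMUSG00000036867, mm10 chr9:63953076-64022059, minus strand), the inhibitory SMAD of the list, fell in the 2iL course on few counts. It had 10 and 11 counts at 0 h, 3 and 3 at 24 h, 4 at 36 h, 1 and 4 at 48 h, 4 and 1 at 60 h, 3 and 0 at 72 h, 0 and 0 at 84 h and 4 and 9 at 96 h. In CPM the 0 h libraries stood at 4.16 and 4.87, above all later ones of the course. The count ratio was 0.201 at 48 h (exact 95% interval 0.0591 to 0.547) and 0.151 at 72 h (0.0289 to 0.507). By edgeR both passed (log2 fold change -2.22, adjusted p = 0.048 at 48 h and -2.63, 0.034 at 72 h), as did the joint test (0.019). No fold is given for 84 h, where both libraries were at 0.

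Smad6 in the 2i course had 9 and 1 counts at 0 h, 7 and 8 at 72 h and 8 and 4 at 84 h, and no time passed. The course difference was called at 72 h (-3.80 ± 1.24, adjusted p = 0.049) and jointly (0.019), and the joint call held under every alternative run. Smad6 was over 5 CPM only in library 2 of 2i 72 h and library 1 of 2i 84 h, both in this joint test. It thus passed the filter only through late 2i groups where it was high, and these calls are not independent of that filter. The single-time calls of Smad6 were each lost in at least 4 alternatives. DESeq2 gave 0.13 at 48 h, 0.093 at 72 h and 0.11 for the difference. The 48 h call also ended without library 1 of 2iL 0 h (0.11), library 2 of 2iL 0 h (0.16), library 1 of 2iL 48 h (-1.46, 0.33), without the 4 libraries that stand apart (-1.45, 0.30) and with no filter (0.053). Its value was -3.53 without library 2 of 2iL 48 h. The 72 h call ended without library 1 of 2iL 0 h (0.08), library 2 of 2iL 0 h (0.11) or library 2 of 2iL 72 h (-1.83, 0.23), which held 0 counts. The joint 2iL call ended without library 2 of 2iL 0 h (0.061) or the 4 libraries that stand apart (0.051). The 72 h difference ended without library 1 of 2iL 0 h (0.094), library 2 of 2iL 0 h (0.11), library 2 of 2iL 72 h (-3.00, 0.19), library 2 of 2i 0 h (-3.13, 0.13), library 1 of 2i 72 h (0.087) or library 2 of 2i 72 h (0.14). It was -5.73 without library 1 of 2i 0 h. Without library 1 of 2iL 72 h, which leaves a single library at 0, the fitted values were -6.17 for the 72 h change and -7.38 for the difference. These depend on the prior count and are no bounds.

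Msx1 (ENSMUSG00000048450, mm10 chr5:37820485-37824583, minus strand), a homeobox gene known as a BMP target, was at 0 to 7.58 CPM. Its highest levels in the 2i course were 7.58 and 7.51 CPM at 84 h, against 3.18 and 2.2 CPM at 0 h, a count ratio of 2.73 (1.33 to 5.93), which did not pass (adjusted p = 0.056). At 48 h of the 2iL course it had 12 and 13 counts, against 6 and 1 at 0 h (adjusted p = 0.067), and at 48 h of the 2i course 1 and 4 counts, against 8 and 4 at 0 h. Jointly over the shared times the courses differed for Msx1 (adjusted p = 0.041), and 15 of 34 alternatives ended that call, with adjusted p-values up to 0.16 without library 1 of 2i 48 h.

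**Figure D4:**
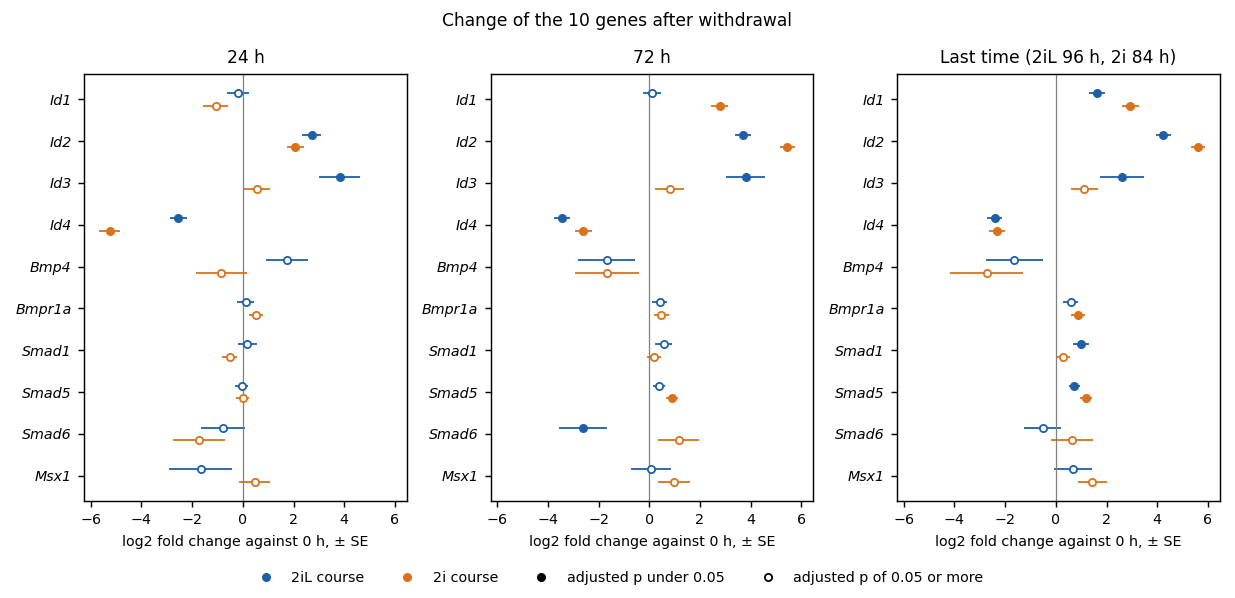
Log2 fold change against 0 h with its SE for the 10 genes at 24 h, at 72 h and at the last time of each course (2iL 96 h, 2i 84 h), with the 2iL course in blue above the 2i course in orange and filled points for adjusted p under 0.05. Id2 lies to the right and Id4 to the left of 0 in all 3 panels for both courses, while Id1 at 72 h is at 2.77 in the 2i course and at 0.11 in the 2iL course.

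The other genes of the pathway came from lists written with earlier results of these data known, which also hold the 10 genes by their roles. Of 12 listed ligands 6 were tested, Bmp4 among them. Of these 4 changed at 96 h of the 2iL course (39.5% of all tested genes; median log2 fold change of the 6, 0.22). At 84 h of the 2i course 4 changed as well (33.2% of all tested genes; 0.09), 3 higher and 1 lower each. The medians of all tested genes lay between -0.05 and 0.05 in every comparison. Bmp7, a BMP ligand, was at 12.3 and 12.1 CPM at 0 h of the 2i course, 0.686 and 2.94 CPM at 12 h, 1.47 and 1.07 CPM at 24 h and 26.4 and 28.3 CPM at 72 h. It was thus below 0 h early and above it late, with log2 fold changes of -3.23 ± 0.46 at 24 h (adjusted p = 4.1e-06) and 1.16 ± 0.30 at 72 h (0.0037). In the 2iL course Bmp7 was still below 0 h at 72 h (-1.35 ± 0.40, 0.011) and above it at 96 h (1.95 ± 0.29, 3.5e-06), and the difference at 72 h was -2.51 ± 0.50 (9.1e-04). The 72 h call in the 2iL course ended under DESeq2 (0.052), without library 1 of 2iL 0 h (0.15) or without library 2 of 2iL 72 h (0.11).

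Gdf3, a ligand of the wider TGF-beta family, fell to 24 and 20.6 CPM at 96 h of the 2iL course, against 95.7 and 114 CPM at 0 h (-2.25 ± 0.21, adjusted p = 4.1e-10). At 84 h of the 2i course it was at 8.21 and 4.29 CPM, against 104 and 118 CPM at 0 h (-4.16 ± 0.26, adjusted p = 1.1e-13). Its change at 72 h was smaller in the 2iL course, by a difference of 2.24 ± 0.31 (5.5e-06). Gdf11, another ligand of that family, rose in both, by 2.75 ± 0.39 at 96 h of the 2iL course (1.0e-06) and 2.90 ± 0.39 at 84 h of the 2i course (5.8e-07). The 2iL value of Gdf11 was 3.39 without library 2 of 2iL 0 h.

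Of 10 receptors and co-receptors 9 were tested, Bmpr1a among them. At 96 h of the 2iL course 2 changed (39.5% of all tested genes; median 0.39), and at 84 h of the 2i course 5 changed (33.2%; median 0.85). Rgma, a BMP co-receptor, was lower in 2i than in 2iL before withdrawal, at 9.93 and 13.2 CPM in 2i and 46.2 and 46.5 CPM in 2iL (-2.02 ± 0.26, adjusted p = 2.1e-06). It fell to 18.4 and 20.5 CPM at 72 h of the 2iL course (-1.25 ± 0.24, 1.5e-04) and rose to 150 and 143 CPM at 72 h of the 2i course (3.68 ± 0.25, 1.4e-12). The libraries of the courses at 72 h did not overlap. The difference was -4.93 ± 0.35 (1.1e-11), and at 24 h -2.64 ± 0.47 (5.8e-04). Acvr2b, a type II receptor, rose to 195 and 211 CPM at 96 h of the 2iL course, against 92.8 and 78.4 CPM at 0 h (1.24 ± 0.18, 1.1e-06), and by 1.06 ± 0.18 at 84 h of the 2i course (2.1e-05).

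Of the 6 SMAD proteins all were tested, and 4 changed at 96 h of the 2iL course (39.5% of all tested genes; median 0.35) and 3 at 84 h of the 2i course (33.2%; 0.98). Smad1 and Smad5, described above, make up 2 of these 4, and Smad5 is 1 of these 3. Smad4, the partner of the receptor-activated SMADs, rose to 106 and 90.6 CPM at 84 h of the 2i course, against 56 and 55.5 CPM at 0 h (0.82 ± 0.18, adjusted p = 7.9e-04). Smad3, which carries TGF-beta and Nodal signals, fell in the 2iL course at 72 h (-1.14 ± 0.43, 0.044) and rose in the 2i course (1.22 ± 0.41, 0.023), a difference of -2.37 ± 0.59 (0.0075). Both single-course calls of Smad3 were lost when 1 library was left out, with adjusted p-values of up to 0.17 without library 2 of 2iL 72 h and 0.17 without library 2 of 2i 0 h, and the difference was kept.

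**Figure D5:**
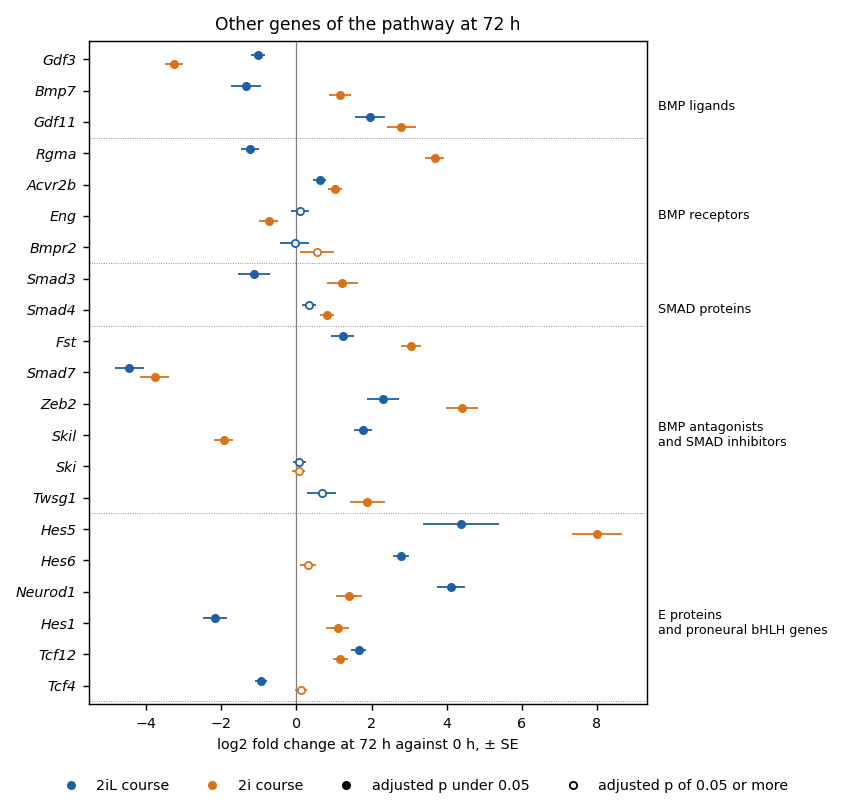
Log2 fold change at 72 h against 0 h with its SE for 21 other genes of the pathway lists, grouped by list, with the 2iL course in blue above the 2i course in orange and filled points for adjusted p under 0.05. Smad7 is far to the left in both courses, and Rgma, Skil, Bmp7, Smad3 and Hes1 lie on opposite sides of 0.

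Of 18 antagonists and SMAD inhibitors 10 were tested, Smad6 among them, and 5 changed at 72 h of the 2iL course (28.8% of all tested genes; median 0.36) and 6 at 72 h of the 2i course (28.2%; 0.61). Smad7, the inhibitory SMAD of both BMP and TGF-beta signals, was at 87.8 and 64.2 CPM at 0 h of the 2iL course, 29.4 and 19.5 CPM at 24 h, 1.65 and 4.81 CPM at 48 h and 3.25 and 4.67 CPM at 96 h. In the 2i course it was at 83.4 and 76.4 CPM at 0 h, 3.92 and 0.716 CPM at 24 h and 5.05 and 6.44 CPM at 84 h. It fell by 24 h in both and stayed low, with log2 fold changes at 24 h of -1.62 ± 0.32 in the 2iL course (adjusted p = 6.3e-04) and -5.21 ± 0.41 in the 2i course (5.2e-11). The difference of 3.59 ± 0.56 at 24 h passed (1.2e-04), as that of Id4 did, and was 5.08 without library 1 of 2i 24 h and 2.67 without library 2 of 2i 24 h. At 72 h Smad7 did not differ between courses past the threshold (-0.66 ± 0.63, 0.57).

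Fst, a secreted protein that binds activin and some BMPs, rose to 16.3 and 25.7 CPM at 72 h of the 2iL course, against 9.16 and 8.42 CPM at 0 h (1.23 ± 0.31, adjusted p = 0.0024), and to 85.4 and 108 CPM at 72 h of the 2i course, against 10.7 and 12.6 CPM (3.05 ± 0.27, 2.5e-10). The difference was -1.82 ± 0.42 (0.004). The 2iL call of Fst ended without library 2 of 2iL 72 h (0.08). Zeb2, a repressor that binds SMADs, rose to 38.8 and 41.1 CPM at 72 h of the 2iL course, against 4.58 and 11.5 CPM, and to 146 and 117 CPM at 72 h of the 2i course, against 2.38 and 11 CPM, a difference of -2.10 ± 0.65 (0.034). That difference of Zeb2 was -1.36 without library 2 of 2iL 0 h (0.39), -1.29 without library 1 of 2i 0 h (0.28) and -3.44 without library 2 of 2i 0 h (0.004), and it missed the threshold without library 1 of 2iL 72 h (0.066), library 2 of 2iL 72 h (0.067) or library 1 of 2i 72 h (0.10). Skil, a SMAD co-repressor, was higher in 2i than in 2iL before withdrawal (93.7 and 62.6 CPM in 2i, 25 and 25.7 CPM in 2iL, 1.63 ± 0.24, 1.3e-05). At 72 h Skil had risen in the 2iL course (1.76 ± 0.24, 6.4e-07) and fallen in the 2i course (-1.94 ± 0.26, 7.7e-07), with a difference of 3.70 ± 0.35 (5.2e-09). Ski, its relative, fell at 24 h of the 2i course (-1.01 ± 0.18, 1.1e-04) and differed between courses there (1.28 ± 0.25, 0.0021).

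Of 18 BMP target genes 13 were tested, 6 of them from the 10 genes above. At 72 h 7 of the 13 changed in the 2iL course, 3 higher and 4 lower (28.8% of all tested genes; median -0.48), and 5 in the 2i course, 3 higher and 2 lower (28.2%; median 0.80). They did not move as a block. Id2 was higher and Id4 and Smad7 lower in both courses, Id1 was higher in the 2i course, and Id3 was higher in the 2iL course.

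Partners of the Id proteins were listed as E proteins and proneural or Hes genes, of which 8 of 13 were tested. At 72 h 6 of the 8 changed in the 2iL course (28.8% of all tested genes; median 2.22) and 5 in the 2i course (28.2%; 1.14). Tcf12, an E protein, rose by 1.66 ± 0.20 at 72 h of the 2iL course (adjusted p = 1.1e-07) and 1.17 ± 0.19 at 72 h of the 2i course (1.6e-05). Tcf4, an E protein, fell in the 2iL course (-0.95 ± 0.16, 1.4e-05), was at 0.12 ± 0.16 in the 2i course (0.64), and differed by -1.07 ± 0.22 (0.0014). Neurod1, a proneural gene, rose by 4.11 ± 0.37 in the 2iL course (3.4e-10) and 1.39 ± 0.35 in the 2i course (0.0029), a difference of 2.72 ± 0.56 (0.0012). Its 2i call ended without library 1 of 2i 72 h (0.14).

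Hes1, a repressor of proneural genes, fell at 72 h of the 2iL course to 14.3 and 15.4 CPM, against 71.6 and 62 CPM at 0 h (-2.17 ± 0.33, adjusted p = 4.8e-06). In the 2i course it was at 32.2 and 24.7 CPM at 0 h, 2.45 and 3.22 CPM at 24 h and 66.9 and 55.8 CPM at 72 h, higher than at 0 h by 1.10 ± 0.31 (0.0084), and the difference was -3.27 ± 0.46 (5.9e-06). The 72 h call of Hes1 in the 2i course ended without library 2 of 2i 0 h (0.081) or library 1 of 2i 72 h (0.093). Hes6, of the same family, rose in the 2iL course (2.78 ± 0.22, 1.5e-11) and was at 0.31 ± 0.22 in the 2i course (0.32), a difference of 2.47 ± 0.31 (8.9e-07). Hes5, of the same family, held 0 or 1 count in each 0 h library. It was at 4.9 and 6.68 CPM at 72 h of the 2iL course and at 73.1 and 76.6 CPM at 72 h of the 2i course, where it reached 305 and 219 CPM at 84 h.

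Across the 16 group means, the member pair with the closest pattern was Id2 and Smad5 (Pearson r = 0.85, Spearman rho = 0.89). The most opposed pair was Bmp4 and Smad5 (r = -0.81, rho = -0.84). Bmp4 held 99 counts over all 31 libraries, so its log2 means at late times depend on the prior count and on depth. Id1 and Id2 had r = 0.65 and rho = 0.60, and Id2 and Id4 r = -0.41 and rho = 0.05. These are descriptions over 16 groups, whose points share the time after withdrawal and come from the same libraries for both genes. Among 8253 genes with a mean log2 CPM of at least 3, the closest to Id4 were Src (r = 0.97), Cst3 (0.94) and Nfkbia (0.93). The closest to Id2 were Fjx1 (0.96), Fignl2 (0.95) and Actr1a (0.95), to Id1 Ptpra (0.92), Dsp (0.91) and St7l (0.91), and to Id3 Zfp37 (0.86), Uck1 (0.85) and Itm2a (0.85).

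Markers of other cell types moved with time in the same libraries. Of the 9 primitive endoderm markers, Gata4, Gata6, Sox17 and Sox7 stayed at or under 2.94 CPM in all 31 libraries. Sox7 was at 0 in 30 of them. The others reached more, Pdgfra 3.07 CPM, Foxa2 6.31 CPM, Dab2 9.05 CPM, Lama1 46.2 CPM and Col4a1 53.3 CPM. Of the 4 tested in that list 2 were higher and 1 lower at 96 h of the 2iL course (39.5% of all tested genes changed). At 84 h of the 2i course 3 were higher and 0 lower (33.2% of all tested genes changed). The sum of the 9 primitive endoderm markers was 74.7 and 60.3 CPM at 96 h of the 2iL course, against 50.4 and 47 CPM at 0 h, and 55.6 and 63.8 CPM at 84 h of the 2i course, against 13.5 and 17 CPM at 0 h, and most of it was Col4a1 and Lama1. The sum of the 12 mesoderm and extraembryonic markers was 70.1 and 73.5 CPM at 96 h of the 2iL course, against 188 and 180 CPM at 0 h. It was 114 and 93.3 CPM at 84 h of the 2i course, against 258 and 239 CPM at 0 h. In any library Mesp1 and Hand1 did not exceed 1.61 CPM, Elf5 2.75 CPM and Mixl1 3.72 CPM. Higher maxima were those of Kdr (7.38 CPM), Krt8 (11), Gata3 (15.7), Eomes (20.4), Cdx2 (32.8), T (35.6), Krt18 (47.8) and Tfap2c (224). Only at 0 h of the 2i course was the sum of this list above the maximum of Tfap2c. Tfap2c thus made up most of the sum in at least 1 library of that group, and the fall of the sum is not one of the whole list. Of the 8 tested in that list 3 were higher and 3 lower at 96 h of the 2iL course (39.5% of all tested genes changed). At 84 h of the 2i course 3 were higher and 1 lower (33.2% of all tested genes changed), while the sum was below that of 0 h. The sum of the 8 fibroblast markers, most of it Vim, was 103 and 107 CPM at 96 h of the 2iL course, against 333 and 354 CPM at 0 h. It was 128 and 168 CPM at 84 h of the 2i course, against 108 and 138 CPM at 0 h. Of the 5 tested in that list 1 was higher and 1 lower at 96 h of the 2iL course (median log2 fold change 1.70), where 39.5% of all tested genes changed. In the same list 3 were higher and 0 lower at 84 h of the 2i course (2.03), where 33.2% of all tested genes changed. With so few genes these shares are coarse. The 10 pluripotency genes summed to 1071 and 1032 CPM at 96 h of the 2iL course, against 2337 and 2518 CPM at 0 h, and to 800 and 794 CPM at 84 h of the 2i course, against 2335 and 2242 CPM at 0 h. The part of these cell states in the levels of the 10 genes was not tested.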

How the data were processed

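Polyadenylated RNA was read from the 3′ ends of transcripts (3′ digital gene expression), per the labels' protocols. Per the submitters' processing notes, bcl2fastq, STAR 2.6.0a, HTSeq and mm10 were used; the annotation release and the strand setting of counting are not given in the sources used here, so reads of overlapping antisense genes cannot be told apart. The authors deposited whole-number counts of uniquely aligned reads per gene, and these counts were the only values used. Lines that name no gene held 23.4% to 55.4% of uniquely aligned reads and were left out. Gene symbols and positions came from GENCODE M21, which names 30934 of 31053 IDs. Groups came from the labels alone.

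Library 2 of 2iL 36 h, with 7298 counts, was left out. Tests were edgeR 4.0.16 quasi-likelihood (R 4.3.3) with TMM scaling, filterByExpr on the groups, 1 coefficient per group over 31 libraries, 15 residual degrees of freedom and a common dispersion of 0.0213, with Benjamini-Hochberg adjustment over 12556 tested genes. The fit was run on simulated data with the common dispersion for every gene and changes only in genes of higher counts. That run cannot speak for genes as low as Bmp4, Smad6 and Msx1 or for the scatter of Id3. SE is the log2 fold change divided by the square root of F. Comparisons were 2i against 2iL, 5 times of the 2i course and 4 of the 2iL course against 0 h, each course jointly, and the change in the 2iL course minus that in the 2i course at 24, 48 and 72 h and jointly, 16 in all. Log2 CPM used a prior count of 2. Alternatives were DESeq2 1.42.0 and its size factors, no filter, all 32 libraries, without the 4 libraries that stand apart, a replicate block, the groups compared alone, and each library left out.

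The 10 genes and all lists were chosen with earlier results of these data known. Pathway genes are named when their mean is at least 10 CPM, by the smallest joint p, at most 6 per list, and 3 like genes are given per Id gene. Outside this rule, all markers of the primitive endoderm list and of the mesoderm and extraembryonic list were named after their values were seen. So were Vim, Pou5f1, Nanog and Sox2.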

Additional observations from a re-analysis of the deposited data

Results flagged for a closer look

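Each result here is a difference between the courses in the change against 0 h, the 2iL change minus the 2i change, that passed the edgeR test at an adjusted p under 0.05.

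Over the 6 shared times jointly this held for Id1 (adjusted p = 8.1e-07), Id2 (4.6e-06), Id4 (1.0e-04), Smad6 (0.019) and Msx1 (0.041). At single times the log2 differences of the 10 genes were 2.72 for Id4 at 24 h and -2.24 for Id4 at 48 h. At 72 h they were -2.66 for Id1, -1.76 for Id2 and -3.80 for Smad6. Smad6 passed the filter on low counts only through libraries of 2i 72 h and 2i 84 h, where it was high. For Id4 the sign turned between 24 h and 48 h, and the 48 h value rests on library 1 of 2iL 48 h, without which it was -1.32 (adjusted p = 0.23).

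Among the other genes of the pathway the differences at 24 h were -2.64 for Rgma, 3.59 for Smad7 and 1.28 for Ski. At 72 h they were -4.93 for Rgma, 3.70 for Skil, -3.27 for Hes1, 2.72 for Neurod1, -2.51 for Bmp7, 2.47 for Hes6, -2.37 for Smad3, 2.24 for Gdf3, -2.10 for Zeb2, -1.82 for Fst and -1.07 for Tcf4. Of these genes Rgma, Skil, Hes1, Hes6, Neurod1 and Tcf4 also differed between 2i and 2iL at 0 h.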

How the results depend on the processing

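Of 2297 values of the 10 genes under alternatives, 2161 kept their side of the threshold, 80 lost the call and 56 gained it. A turn of sign was counted only for values called with or without the alternative, and joint tests have no sign. By that count 0 values of the 10 genes turned round, and 0 of the named pathway genes. The number of the 10 genes called moved by over 1.5 times in some settings, given here with the number of all genes called. DESeq2 called 1 for 2i against 2iL (725 of 12556 genes). Without the 4 libraries that stand apart it was 5 at 48 h of the 2i course (3424 of 12400). It was 2 there for the difference at 24 h (838 of 12400) and 8 for the joint 2i course, with all genes given above. With the groups compared alone these were 5 (3448 of 9710), 2 (762 of 10237) and 8 (7525 of 10951). No filter gave 8 for the joint 2i course (7134 of 23898) and 2 for the difference at 24 h (403 of 23898). The groups compared alone gave 0 for the difference at 48 h by edgeR (935 of 10514). There 1 was at an unadjusted p under 0.05, and DESeq2 on all groups called 1. In the main test 2533 of 12556 genes were called at 48 h of the 2i course. The joint 2i course had 6563 and the 24 h difference 387. Leaving out 1 library gave 0 to 2 for 2i against 2iL, 2 at 12 h, 2 to 3 at 24 h, 2 to 3 at 48 h, 3 to 4 at 72 h and 4 to 5 at 84 h of the 2i course, 3 at 24 h, 2 to 4 at 48 h, 3 to 4 at 72 h and 4 to 6 at 96 h of the 2iL course, 5 to 6 and 5 to 8 for the joint 2i and 2iL courses, and 4 to 6 jointly, 0 to 1 at 24 h, 0 to 1 at 48 h and 1 to 3 at 72 h for the difference.

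Replicate numbers did not pair the libraries: over 105 pairs of groups the correlation of same-numbered deviations ran from -0.38 to 0.42 (median 0.01), over 0.1 in 10. With the replicate block 2 calls of Smad6 were lost, at 48 h of the 2iL course (-2.22, adjusted p = 0.055) and in the 72 h difference (-3.84, 0.054), and no other call of the 10 genes. Depth limits Bmp4, Smad6 and Msx1 most.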
